A study of Mus musculus with 10 samples.

Results

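Mitosis, spindle and kinetochore genes encode the proteins that carry a cell through division. The list holds 41 genes, chosen by name: kinases and cyclins of mitotic entry, the spindle checkpoint, the chromosomal passenger complex, centromere and kinetochore proteins, mitotic kinesins, the machinery of sister chromatid separation, and general marks of dividing cells. They were chosen with earlier results of these data known, so the counts below describe the list and are not independent support. Of the 41, 36 were measured by a probe set that the array annotation assigns to that gene alone, out of 18820 genes so measured. Ccnb1, Foxm1, Cenpk, Kif20a and Ube2c had no such probe set and were not analysed here. Where a gene had several probe sets, the one with the highest mean over all arrays was used; this choice arose for Kif11, Mad2l1 and Top2a.

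The samples were 10 mouse teratomas, tumours of mixed tissue grown from embryonic stem cells, each read on its own array. All came from J1 stem cells of strain Sv/129 that lack both copies of mouse Vhl and carry a human VHL cDNA, and all grew under the skin of female nude (nu/nu) mice. The 4 P81S teratomas carried the P81S form and are labelled as resistant to apoptosis; the 3 R167Q and the 3 wildtype teratomas carried those forms and are labelled apoptotic. The study design gives the P81S arrays as 2 replicates of each of 2 clones, without saying which arrays share a clone, and the labels name neither the promoter of the cDNA nor the ages of the hosts. Cells went into both flanks of a mouse, and no label says which tumours shared a host, so p-values measure only the spread between these tumours.

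Cells build up most mitotic transcripts only as they approach division, so in a tissue the level of these transcripts follows, among other things, how many of its cells are cycling. Cyclin-dependent kinase 1 with its cyclins starts mitosis, the kinetochore ties chromosomes to spindle microtubules, the spindle checkpoint holds anaphase until every chromosome is attached, and the anaphase-promoting complex then releases the sister chromatids. Embryonic stem cells divide fast, and neurons, which teratomas often contain, have left the cell cycle. Many mitotic promoters share a short element called CHR, near the transcription start, which binds the MuvB core of the DREAM and MYB-MuvB complexes, together with CCAAT boxes bound by the factor NF-Y.

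That sequence feature was present in these genes. Start windows from RefSeq (GRCm38.p6), from 250 bases before to 50 bases after each annotated start, were matched by symbol for 33 of the 41 genes, 30 of them measured. The CHR letters TTTGAA, on either strand, stood in the windows of 22 of the 33 (66.7%), against 20.2% of all 27025 genes in the table. Between 50 bases before and 50 after the start they stood in 20 of the 33 (60.6%), against 5.72% of all genes. CCAAT on either strand was in 25 (75.8%), against 41.1%, and both sets of letters together in 19 (57.6%), against 8.97%. The letters TTTGGCGC, TTTCCCGC, TTTGCCGC or TTTCGCGC, which resemble sites of E2F factors, were in 1 (Cdk1), or 3.03%, against 2.60%. Matches of different motifs could share bases at their ends, and a match is a description of the sequence, not a bound site.

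The 5 windows below are printed as examples, picked with the expression results known. Ttk, Cdc20 and Espl1 had the largest falls in P81S among genes with CHR letters close to the start and CCAAT in the same window. Mki67 holds the letters and did not pass the test, and Pttg1 holds neither and fell with a small error. Capitals mark CHR and CCAAT letters on either strand, so that TTCAAA and ATTGG are their reverse complements.
Ttk, GRCm38.p6, chr9:83834439-83834738, plus strand: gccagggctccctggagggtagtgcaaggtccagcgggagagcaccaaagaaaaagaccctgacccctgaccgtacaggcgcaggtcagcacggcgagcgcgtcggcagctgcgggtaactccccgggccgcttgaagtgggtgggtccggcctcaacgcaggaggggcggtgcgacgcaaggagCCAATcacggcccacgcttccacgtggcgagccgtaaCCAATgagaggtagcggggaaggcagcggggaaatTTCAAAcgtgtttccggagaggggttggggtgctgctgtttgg
Cdc20, GRCm38.p6, chr4:118437294-118437593, minus strand: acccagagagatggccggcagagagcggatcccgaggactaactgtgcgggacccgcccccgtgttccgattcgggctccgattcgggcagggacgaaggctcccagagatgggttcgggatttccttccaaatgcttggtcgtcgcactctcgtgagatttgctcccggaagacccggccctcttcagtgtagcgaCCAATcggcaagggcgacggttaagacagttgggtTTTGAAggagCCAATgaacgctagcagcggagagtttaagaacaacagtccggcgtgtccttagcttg
Espl1, GRCm38.p6, chr15:102296043-102296342, plus strand: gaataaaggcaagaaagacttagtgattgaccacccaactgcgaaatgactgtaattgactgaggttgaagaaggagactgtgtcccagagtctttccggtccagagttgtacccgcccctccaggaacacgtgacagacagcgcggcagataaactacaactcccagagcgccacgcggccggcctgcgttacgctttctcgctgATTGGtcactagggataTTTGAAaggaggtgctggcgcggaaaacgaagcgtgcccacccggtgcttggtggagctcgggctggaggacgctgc
Mki67, GRCm38.p6, chr7:135716330-135716629, minus strand: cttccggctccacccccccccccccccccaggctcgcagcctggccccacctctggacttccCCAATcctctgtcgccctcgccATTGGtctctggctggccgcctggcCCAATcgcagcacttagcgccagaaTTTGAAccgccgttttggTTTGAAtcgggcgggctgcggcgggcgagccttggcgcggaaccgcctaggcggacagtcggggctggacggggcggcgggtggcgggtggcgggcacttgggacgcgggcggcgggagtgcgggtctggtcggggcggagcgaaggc
Pttg1, GRCm38.p6, chr11:43425932-43426231, minus strand: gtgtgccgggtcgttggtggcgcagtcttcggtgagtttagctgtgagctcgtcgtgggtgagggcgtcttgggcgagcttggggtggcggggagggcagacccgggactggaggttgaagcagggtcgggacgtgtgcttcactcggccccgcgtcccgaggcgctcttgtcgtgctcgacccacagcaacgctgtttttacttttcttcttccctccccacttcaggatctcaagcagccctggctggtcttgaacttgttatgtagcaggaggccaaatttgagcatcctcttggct
In Ttk, Cdc20 and Espl1 the CHR letters began at positions 7, -18 and -27 from the start. In Mki67 they began at positions -116 and -98, outside the stretch near the start where most of the genes held them. The only match in Kif2c, at position -103, also lay outside it, and Kif2c fell 3.49-fold in P81S against wildtype.

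**Figure D1:**
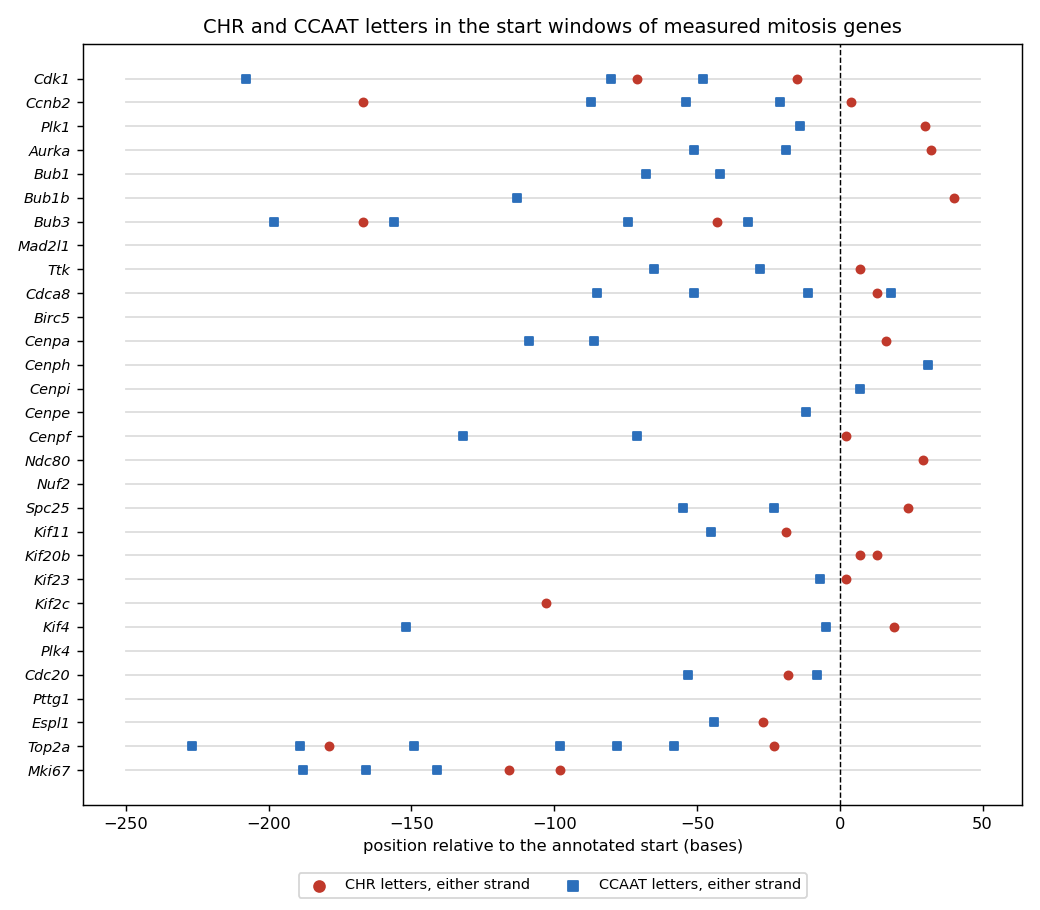
CHR letters (red circles) and CCAAT letters (blue squares) on either strand in the start windows of the 30 measured mitosis genes with a window, by distance in bases from the annotated start (dashed line). Most red circles lie within 50 bases of the start, and the windows of Birc5, Mad2l1, Nuf2, Plk4 and Pttg1 hold neither set of letters; Bub3 has more than 1 annotated start, and its matches are overlaid.

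Some properties of the whole set of arrays touch the results. Values are log2 expression, with array medians of 6.97 to 7.11, and any difference is relative to the rest of the RNA on that array. The P81S arrays spread more than the others: the median gene SD was 0.203 log2 in P81S, 0.159 in R167Q and 0.153 in wildtype. Transcripts of the donor's Y chromosome (mean of Eif2s3y, Kdm5d and Uty) read 8.42 to 9.28 log2 in P81S and 9.12 to 9.52 in R167Q, but 4.26 to 4.70 in wildtype, and the labels do not account for this; its part in the results was not tested. Mouse Vhl itself averaged 8.67 ± 0.20 log2 in P81S (SD, n = 4), 6.99 ± 0.20 in R167Q and 6.91 ± 0.05 in wildtype (SD, n = 3 each), and no source says whether its probes lie in the disrupted part or bind the human cDNA, so it checks nothing. Against the label of a teratoma, lists of markers of neurons, neural progenitors, muscle, endothelium and macrophages had 0 genes under the median of the array's control block (5.91 log2) in every array, while 2 of 10 gut, 3 of 10 cartilage, 1 of 10 squamous epithelium and 1 of 6 erythroid markers did.

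P81S teratomas were set against wildtype ones. The VHL form and other differences between the clones cannot be told apart here. Nearly the whole mitotic list was lower in P81S teratomas. Of 36 measured genes 35 fell, 0 rose and 1, Mki67, did not pass at an adjusted p under 0.05 (limma, two-sided, Benjamini-Hochberg over all 18820 genes); 17.5% of all genes were called lower. The median difference of the list was -1.51 log2, against 0.015 for all genes, and 34 of the 36 were at least 2-fold lower, against 4.95% of all genes. P81S arrays all lay below wildtype arrays for 35 of 36, against 20.7% of all genes (40.6% stood apart in either direction), and the mean was lower for 36, against 48.3% of all genes. In tumour RNA, fewer dividing cells and less of a transcript in each cell cannot be told apart.

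**Figure D2:**
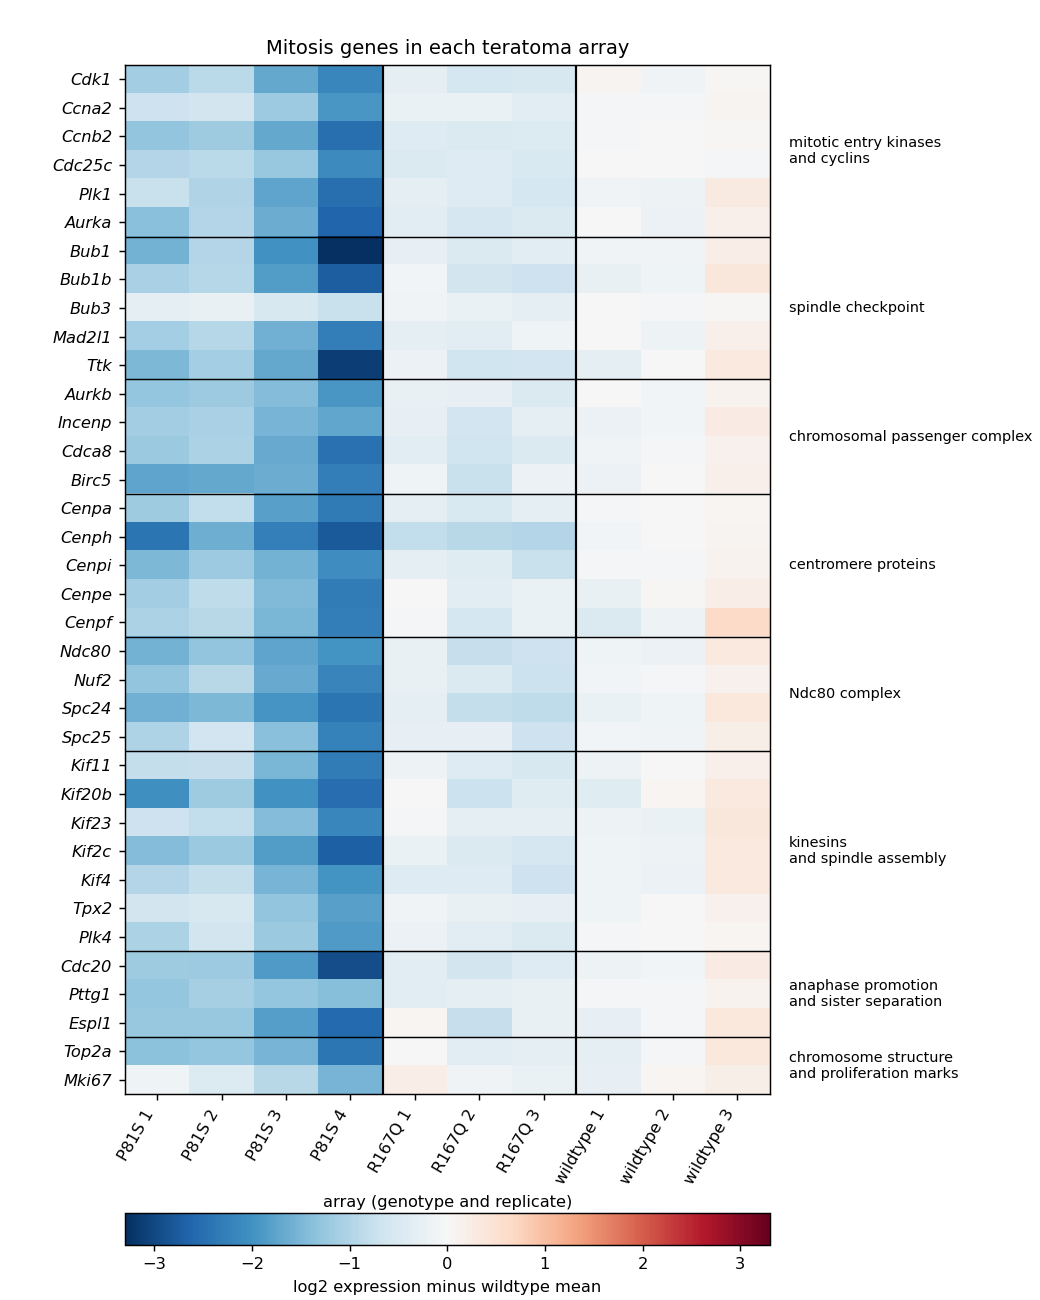
Log2 expression of the 36 mitosis genes in each array minus the wildtype mean of the gene, in rows by role and in columns by genotype and replicate. All 36 rows are blue (below the wildtype mean) in every P81S array and darkest in P81S replicate 4; R167Q columns are paler, with 32 of 36 genes below the wildtype mean in replicate 1 and 36 in the others.

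Genes of mitotic entry fell together, 6 of 6 measured. Ccnb2, a B-type cyclin that activates CDK1, read 10.69, 10.82, 10.29 and 9.49 log2 in the 4 P81S arrays, 11.56, 11.52 and 11.53 in the 3 R167Q arrays, and 11.95, 11.99 and 12.04 in the 3 wildtype arrays. Every P81S array lay below every R167Q array, and these below every wildtype array. Ccnb2 was 3.18-fold lower in P81S than in wildtype (log2 -1.67 ± 0.25, SE; adjusted p = 0.000476, limma). Cdk1, the mitotic kinase itself, read 9.39, 9.66, 8.86 and 8.40 log2 in P81S, 10.22, 9.96 and 10.01 in R167Q, and 10.63, 10.42 and 10.58 in wildtype, again with no overlap, and was 2.76-fold lower (-1.47 ± 0.25, adjusted p = 0.00094, limma). Ccna2, the cyclin of S phase and mitotic entry, changed least in the group: 10.96, 11.05, 10.46 and 9.72 log2 in P81S, 11.44, 11.42 and 11.31 in R167Q, and 11.61, 11.60 and 11.75 in wildtype. Its fall was 2.15-fold (-1.10 ± 0.25). The centrosomal kinase gene Aurka (-1.65 ± 0.30), the polo-like kinase gene Plk1 (-1.49 ± 0.34) and the CDK1-activating phosphatase gene Cdc25c (-1.30 ± 0.25) lay between Ccnb2 and Ccna2.

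All 5 genes of the spindle checkpoint fell, with the widest range of any role. Bub1, a kinase that marks kinetochores, read 9.10, 9.70, 8.66 and 7.36 log2 in P81S, 10.38, 10.18 and 10.28 in R167Q, and 10.55, 10.55 and 10.87 in wildtype. P81S replicate 4 lay far below the other P81S arrays, and all 4 lay below the R167Q and wildtype arrays. The fall was 3.87-fold (-1.95 ± 0.41, adjusted p = 0.00368, limma). Bub3, a checkpoint protein that binds kinetochores with BUB1 and BUBR1, read 9.85, 9.91, 9.62 and 9.43 log2 in P81S, 10.05, 9.93 and 9.82 in R167Q, and 10.15, 10.12 and 10.20 in wildtype. It was the smallest fall of the whole list, 1.37-fold (-0.46 ± 0.12, adjusted p = 0.0136, limma), and it did not pass without wildtype replicate 3 (-0.43 log2, adjusted p = 0.051) or without P81S replicates 3 and 4 (-0.28 log2, adjusted p = 0.0948). Ttk, the MPS1 kinase that starts checkpoint signalling, fell 3.61-fold (-1.85 ± 0.39), Bub1b, which encodes BUBR1, 3.14-fold (-1.65 ± 0.37), and Mad2l1, the CDC20 inhibitor MAD2, 2.80-fold (-1.49 ± 0.26).

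The chromosomal passenger complex corrects faulty attachments and guides cytokinesis, and its 4 genes all fell by more than 2-fold. Birc5, which encodes the survivin subunit, read 7.14, 7.20, 7.26 and 6.60 log2 in P81S, 8.75, 8.15 and 8.68 in R167Q, and 8.69, 8.90 and 9.05 in wildtype. P81S arrays were lower than all others, and R167Q overlapped wildtype. Its fall was 3.56-fold (-1.83 ± 0.20, adjusted p = 9.15e-05, limma). Aurkb, the kinase of the complex, read 9.85, 9.95, 9.71 and 9.21 log2 in P81S, 10.88, 10.86 and 10.65 in R167Q, and 11.12, 11.05 and 11.24 in wildtype. Incenp, the scaffold of the complex, read 8.41, 8.50, 8.03 and 7.85 log2 in P81S, 9.29, 8.92 and 9.28 in R167Q, and 9.38, 9.48 and 9.83 in wildtype. In both genes the 3 groups stood apart. Aurkb fell by 1.46 ± 0.16 on the log2 scale, Incenp by 1.37 ± 0.18, and Cdca8, the borealin subunit, by 1.60 ± 0.28.

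At the centromere, Cenph had the largest fall of the list. This gene of the inner kinetochore read 6.21, 7.01, 6.38 and 5.86 log2 in P81S, 7.81, 7.70 and 7.66 in R167Q, and 8.53, 8.64 and 8.71 in wildtype. The 3 groups did not overlap, and P81S replicate 4 lay near the control block's median of 5.91 log2, where array values tend to understate folds. In that array Cdc25c (5.65 log2) and Cenpi (5.71 log2) also lay under this median, so the same limit holds for them. Cenph was 4.79-fold lower (-2.26 ± 0.23, adjusted p = 6.02e-05, limma). Cenpe, a kinesin that moves chromosomes to the spindle's middle, read 8.13, 8.42, 7.80 and 6.97 log2 in P81S, 9.25, 8.93 and 9.04 in R167Q, and 9.02, 9.30 and 9.49 in wildtype, with only P81S apart. It fell by 1.44 ± 0.29 on the log2 scale, as did Cenpf (-1.44 ± 0.33), a protein of the outer kinetochore; Cenpa, the centromeric histone H3 variant, fell by 1.53 ± 0.29 and Cenpi, an inner kinetochore subunit, by 1.57 ± 0.20.

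The 4 subunits of the Ndc80 complex, the kinetochore's main microtubule grip, fell by similar amounts. Spc24 read 7.13, 7.23, 6.78 and 6.32 log2 in P81S, 8.40, 7.93 and 7.88 in R167Q, and 8.51, 8.59 and 9.05 in wildtype. Spc25, with which SPC24 forms the inner end of the complex, read 7.41, 7.78, 7.04 and 6.19 log2 in P81S, 8.15, 8.16 and 7.74 in R167Q, and 8.33, 8.31 and 8.62 in wildtype. All P81S values lay below all wildtype values in both genes. Spc24 fell 3.61-fold (-1.85 ± 0.24) and Spc25 2.49-fold (-1.32 ± 0.31, adjusted p = 0.00666, limma). The microtubule-binding subunits Ndc80 and Nuf2 lay between them at -1.65 ± 0.20 and -1.52 ± 0.26 log2, so the 4 differences are not far apart for their errors.

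Motor and spindle genes fell in 7 of 7 cases. Kif20b, a kinesin of late mitosis, read 6.68, 7.52, 6.71 and 6.18 log2 in P81S, 8.70, 7.98 and 8.30 in R167Q, and 8.31, 8.76 and 9.03 in wildtype. Its P81S arrays lay below the rest, and it fell 3.81-fold (-1.93 ± 0.30). Tpx2, an activator of Aurora A on the spindle, read 9.34, 9.43, 8.65 and 8.16 log2 in P81S, 9.85, 9.72 and 9.69 in R167Q, and 9.82, 9.94 and 10.11 in wildtype, and fell 2.08-fold (-1.06 ± 0.26, adjusted p = 0.00876, limma). The others were Kif2c, a microtubule-depolymerising kinesin at the centromere (3.49-fold lower), Kif11, which pushes the spindle poles apart (2.54-fold), the chromokinesin gene Kif4 (2.50-fold), Kif23 of the central spindle (2.42-fold) and Plk4, the master kinase of centriole duplication (2.27-fold).

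Of the genes that release sister chromatids, all 3 measured fell. Cdc20, the activator of the anaphase-promoting complex in mitosis, read 9.85, 9.82, 9.17 and 8.11 log2 in P81S, 10.64, 10.43 and 10.61 in R167Q, and 10.86, 10.93 and 11.29 in wildtype. The groups stood apart, with a wide spread in P81S (SD 0.814 log2), and Cdc20 was 3.45-fold lower (-1.79 ± 0.35, adjusted p = 0.00219, limma). Pttg1, which encodes securin, the inhibitor of separase, read 7.47, 7.66, 7.46 and 7.34 log2 in P81S, 8.39, 8.43 and 8.50 in R167Q, and 8.67, 8.70 and 8.87 in wildtype. Its P81S arrays were the tightest of any gene in the list (SD 0.133 log2, n = 4), and its fall of 2.40-fold (-1.26 ± 0.12) had the smallest adjusted p in the list, 5.10e-05 (limma). Espl1, separase itself, fell 3.29-fold (-1.72 ± 0.32).

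Of the general marks of dividing cells, Top2a passed and Mki67 did not, and whether they differ from each other was not tested. Top2a, the topoisomerase that untangles chromosomes before division, read 10.02, 10.11, 9.86 and 9.01 log2 in P81S, 11.39, 11.04 and 11.06 in R167Q, and 11.09, 11.32 and 11.73 in wildtype, and fell 3.10-fold (-1.63 ± 0.25, adjusted p = 0.000521, limma). Mki67, which encodes the proliferation antigen Ki-67 that coats mitotic chromosomes, read 10.71, 10.41, 9.94 and 9.31 log2 in P81S, 11.08, 10.74 and 10.63 in R167Q, and 10.59, 10.92 and 11.05 in wildtype. It was the single member whose P81S and wildtype arrays overlapped, through P81S replicate 1. The difference of -0.76 ± 0.28 log2 (1.69-fold) had an adjusted p of 0.0550 (limma), and the adjusted p lay between 0.00150 and 0.279 over the alternatives tried.

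**Figure D3:**
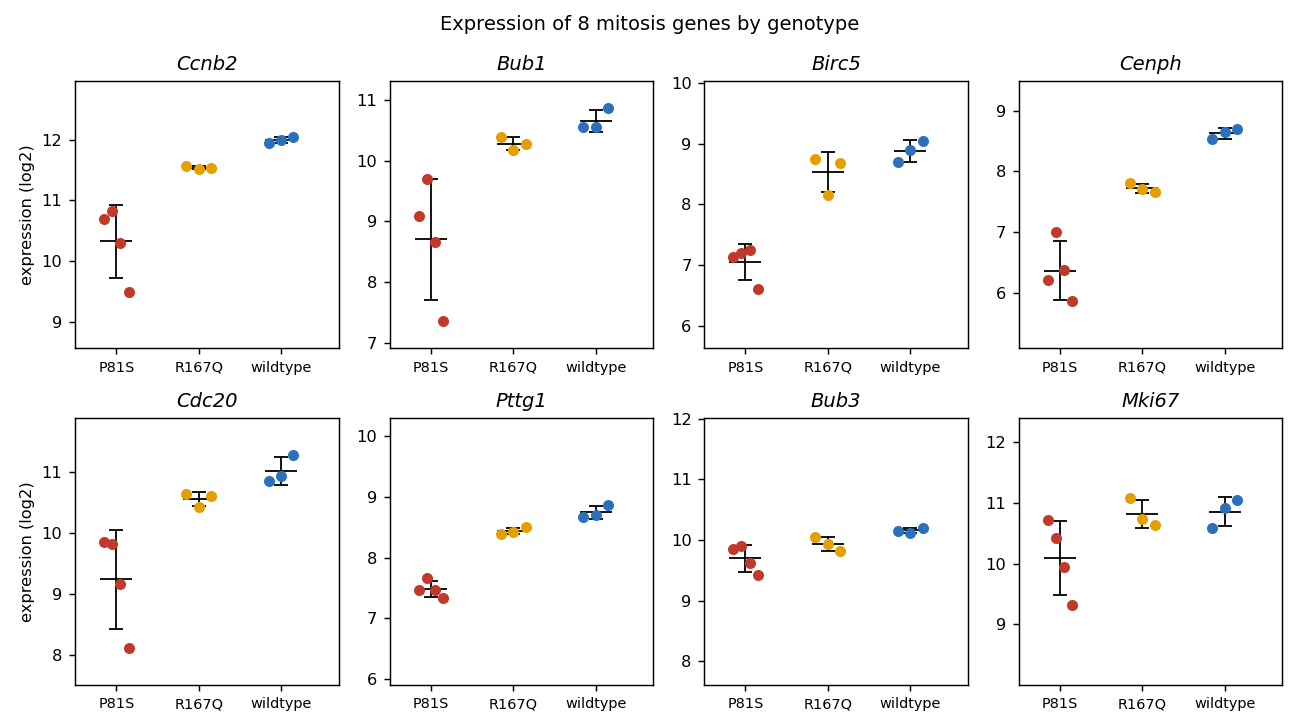
Log2 expression of 8 mitosis genes in each array, by genotype; coloured points are arrays, black bars the group mean and SD, and all panels span the same number of log2 units. Ccnb2, Bub1, Cenph, Cdc20 and Pttg1 separate all 3 genotypes, P81S and R167Q arrays overlap in Bub3, and P81S and wildtype arrays overlap in Mki67.

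For R167Q against wildtype no member passed. Of 36 genes 0 fell and 0 rose at an adjusted p under 0.05 (limma), where 0.0266% of all genes were called lower, 0.0638% higher and 0.0903% in either direction. These errors rest on a spread shared by all 3 groups, P81S included. The members' median SD was 0.601 log2 in P81S, against 0.154 in R167Q and 0.178 in wildtype. The count of 0 therefore does not measure the spread of R167Q and wildtype alone. With only these groups in the model, 1 member, Cenph, was lower. At an unadjusted p under 0.05, 5 of 36 were lower and 0 higher, against 5.80% of all genes lower. The mean was below wildtype for all 36, against 54.0% of all genes, with a median difference of -0.39 log2 against -0.02. Members moved together by array, with wildtype replicate 3 the highest wildtype array for 34 of 36, so they are not separate observations. R167Q arrays lay wholly below wildtype arrays for 24 of 36 genes, against 12.4% of all genes. Cenph had the largest difference, -0.90 ± 0.24 log2 (adjusted p = 0.309, limma), followed by Spc24 at -0.64 ± 0.26 and Ndc80 at -0.56 ± 0.21; the smallest was that of Mki67, -0.03 ± 0.30. Without wildtype replicate 3 the differences of Mki67 and Cenpf were above 0, at 0.07 and 0.05 log2.

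The comparison of P81S with R167Q sets the mutants against each other. In P81S 33 of 36 genes were lower and 0 higher than in R167Q (limma), against 10.1% of all genes called lower, with a median difference of -1.11 log2 against 0.023. At least 2-fold lower were 24, against 2.63% of all genes, and the mean was lower for 36, against 46.9%. P81S arrays lay wholly below R167Q arrays for 33 of 36, against 14.2% of all genes. Bub1 differed most, at -1.58 ± 0.41 log2 (2.98-fold, adjusted p = 0.0189), then Kif20b at -1.56 ± 0.30, Birc5 at -1.48 ± 0.20 and Top2a at -1.42 ± 0.25. Spc25 (-0.91 ± 0.31, adjusted p = 0.0571), Mki67 (-0.72 ± 0.28, adjusted p = 0.0868) and Bub3 (-0.23 ± 0.12, adjusted p = 0.213) did not pass. The count rests in part on single arrays: without R167Q replicate 1 it was 13, and without R167Q replicate 3 it was 18, while the list's median stayed between -1.26 and -0.88 log2 when any array was left out. This comparison and the one with wildtype share the P81S arrays, so they are not separate evidence.

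**Figure D4:**
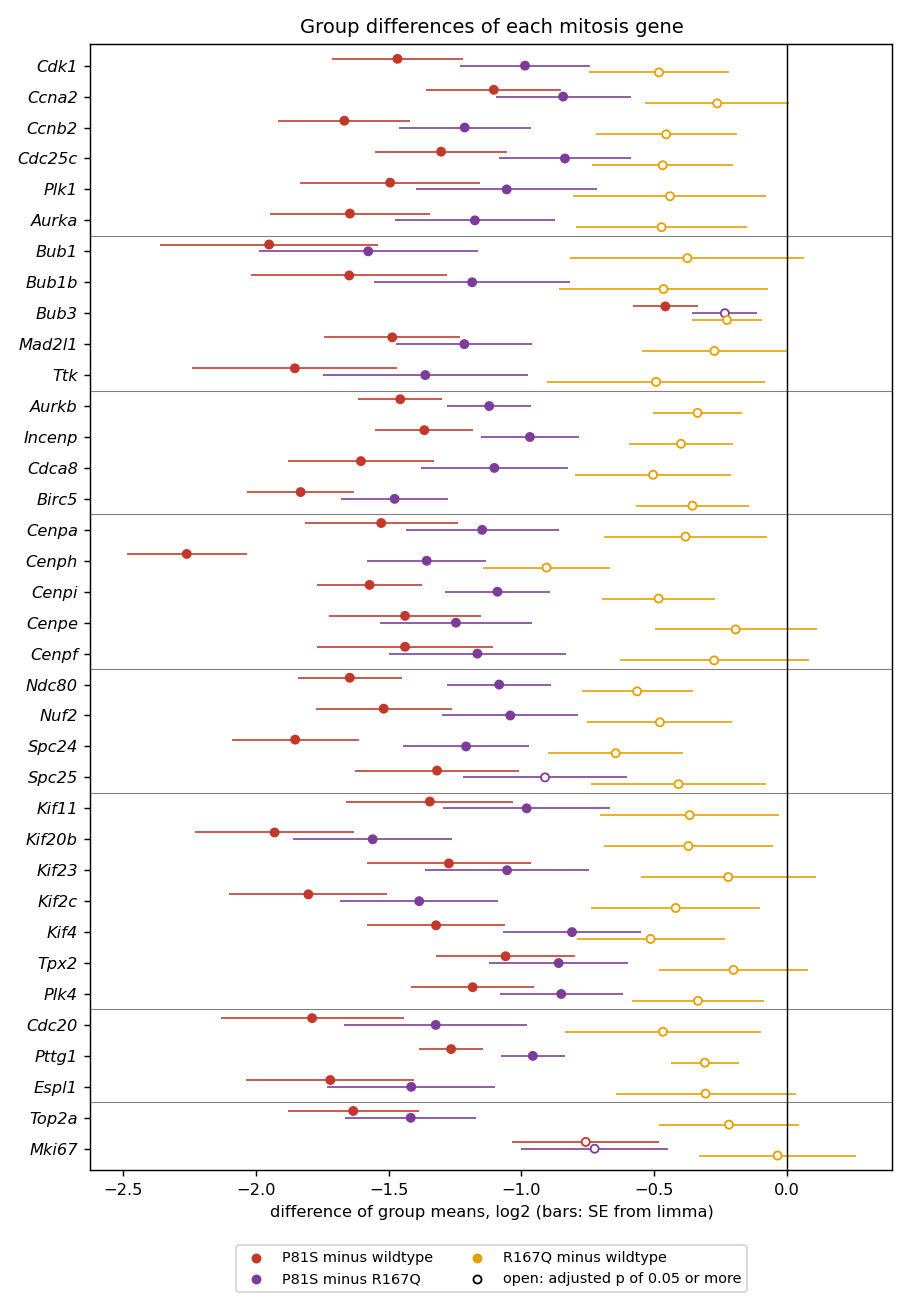
Differences of group means in log2 for each mitosis gene, with standard errors from limma as bars and rows grouped by role; filled points have an adjusted p under 0.05. P81S minus wildtype (red) and P81S minus R167Q (purple) are filled for 35 and 33 of 36 genes, and R167Q minus wildtype (orange) is open and below 0 for all 36.

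Within P81S the tumours differed from one another more in these genes than in most. The median SD of the members was 0.601 log2 in P81S, against 0.203 for all genes, but 0.154 in R167Q and 0.178 in wildtype, close to those of all genes. P81S replicate 4 was the lowest of the 4 P81S arrays for 36 of 36 members, and for 25.9% of all genes; P81S replicate 2 was the highest for 31. The median member differed from the wildtype mean by -1.18, -0.96, -1.61 and -2.28 log2 in P81S replicates 1 to 4, so even the array nearest to wildtype was lower for all 36 genes. Similarly, wildtype replicate 3 was the highest wildtype array for 34 of 36 members (39.9% of all genes) and R167Q replicate 1 the highest R167Q array for 31 (34.0%). With P81S replicates 1 and 2 left out 36 members fell against wildtype, with a median of -1.92 log2, and with replicates 3 and 4 left out 34 fell, with a median of -1.11.

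Some lists of cell markers moved in the same arrays. Of 16 markers of pluripotent stem cells 15 were lower in P81S than in wildtype and 0 higher, and their summed linear values were 1252 to 4534 in P81S, 10157 to 18351 in R167Q and 18465 to 27994 in wildtype; 0 of 16 lay under the control block's median in every array. By list mean they read 7.20, 7.65, 7.18 and 6.14 log2 in P81S, 9.42, 8.69 and 9.65 in R167Q, and 9.59, 9.57 and 10.27 in wildtype, so P81S replicate 4 was lowest and wildtype replicate 3 highest here too. Mitosis genes averaged 8.56, 8.76, 8.17 and 7.50 log2 in P81S, 9.52, 9.26 and 9.29 in R167Q, and 9.61, 9.68 and 9.96 in wildtype. The order was not the same throughout. The highest R167Q array was replicate 1 for the mitosis genes and replicate 3 for the stem cell markers. The lowest wildtype array was replicate 1 for the mitosis genes and replicate 2 for the stem cell markers. Of 12 neuron markers 10 were higher and 0 lower in P81S, with summed values of 37972 to 48245 in P81S, 24714 to 32089 in R167Q and 20383 to 27054 in wildtype, and 0 under the control block's median in every array. Of all genes 17.5% were called lower and 17.2% higher. Other lists had fewer calls: 0 of 10 muscle and 0 of 10 macrophage markers were called in P81S against wildtype. Called lower were 1 of 10 gut and 1 of 10 endothelium markers. Called higher were 2 of 10 squamous epithelium, 2 of 10 cartilage and 2 of 6 erythroid markers. Of 9 neural progenitor markers 2 were lower and 1 higher. Fewer calls did not always mean a smaller shift. List medians were 0.69 log2 for muscle, 0.70 for squamous epithelium and 0.72 for endothelium, beside 0.82 for neurons. The remaining lists had medians from -0.06 (cartilage) to 0.28 (erythroid). Some lists varied widely between tumours: muscle markers averaged 7.82, 6.53, 8.86 and 8.27 log2 in P81S replicates 1 to 4. The part of any of these cell types in the fall of the mitosis genes was not tested.

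Chromosome 11 carries 4 members, Aurkb, Birc5, Pttg1 and Top2a, and its genes read lower in some P81S arrays. Chromosome shifts were taken from the midpoint of the wildtype and R167Q means, unlike the member medians below, which are from the wildtype mean. For the 1181 chromosome 11 genes above the control block's median, the median shift was -0.29 and -0.33 log2 in P81S replicates 1 and 2. It was 0.00 and 0.01 in replicates 3 and 4. The 4 members had medians of -1.32, -1.23, -1.47 and -2.10 log2 from the wildtype mean in P81S replicates 1 to 4, and the 32 members elsewhere -1.15, -0.95, -1.66 and -2.29. With each chromosome's median shift subtracted, Aurkb, Birc5, Pttg1 and Top2a were still lower than in wildtype, by -1.30, -1.68, -1.11 and -1.48 log2 (adjusted p of 0.0028 or less, limma). The 36 members lie on 16 chromosomes in all, and none of the other 32 is on chromosome 8, whose genes read higher in all P81S arrays.

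Other genes of the mitotic machinery were read from lists chosen by function; the genes said to lead a list are those with the smallest p. Condensin, the ring complex that compacts chromosomes, fell in 8 of 8 genes (median -1.16 log2), led by Ncapg2 (-1.50 ± 0.16), Ncapd3 (-0.79 ± 0.11) and Smc2 (-1.36 ± 0.23). Among 24 other mitotic regulators 22 fell and 0 rose (median -1.41), led by Haspin, a histone H3 kinase (-1.65 ± 0.15), Bora, an activator of PLK1 (-1.63 ± 0.16) and the spindle protein gene Hmmr (-1.98 ± 0.26). Of 14 genes of cytokinesis 10 fell and 2 rose; Kif18b (-1.48 ± 0.18), Anln, which encodes anillin (-1.65 ± 0.27) and Kif18a (-1.71 ± 0.30) led the falls. The ESCRT-III gene Chmp4b (0.29 ± 0.08) and Cit, the citron kinase gene (0.38 ± 0.13), rose. These directions can be read against 17.5% of all genes called lower and 17.2% called higher.

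In the kinetochore beyond the members, 9 of 12 centromere and inner kinetochore genes fell and 0 rose, led by Cenpm (-1.37 ± 0.14), Cenpp (-1.50 ± 0.21) and Mis18a, which helps load CENPA (-0.90 ± 0.14). Of 17 outer kinetochore and checkpoint genes 14 fell, led by the checkpoint ATPase gene Trip13 (-2.11 ± 0.28), Sgo1, the protector of centromeric cohesin (-1.75 ± 0.24), and Pmf1 of the MIS12 complex (-1.15 ± 0.17). Zwint, a kinetochore gene, was the exception that rose: it read 12.31, 12.60, 12.34 and 12.59 log2 in P81S against 11.92, 11.82 and 11.79 in wildtype, 1.53-fold higher (0.62 ± 0.11, adjusted p = 0.0012, limma). Its P81S arrays all lay above the wildtype arrays. Of 17 centrosome and centriole genes 12 fell and 0 rose (median -0.61), led by Haus1 and Haus6 of the augmin complex (-1.41 ± 0.12 and -1.33 ± 0.23) and Cep192, a pericentriolar scaffold (-1.24 ± 0.20).

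Among these lists of the mitotic machinery, the anaphase-promoting complex and cohesin had the smallest median falls. Of 16 genes of the anaphase-promoting complex and its regulators 6 fell, 0 rose and 10 did not pass, with a median of -0.21 log2. The regulators Fbxo5, which encodes the inhibitor EMI1 (-1.78 ± 0.34), and Ube2s, the chain-extending E2 enzyme (-0.76 ± 0.12), fell, as did the small subunit gene Anapc13 (-0.41 ± 0.11). Of 13 cohesin genes 6 fell and 7 did not pass (median -0.39); the falls were led by Esco2, which acetylates cohesin in S phase (-2.29 ± 0.30), Cdca5, which encodes sororin (-2.04 ± 0.29), and the cohesin-release factor gene Wapl (-0.98 ± 0.20). Whether these lists differ from the members was not tested.

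**Figure D5:**
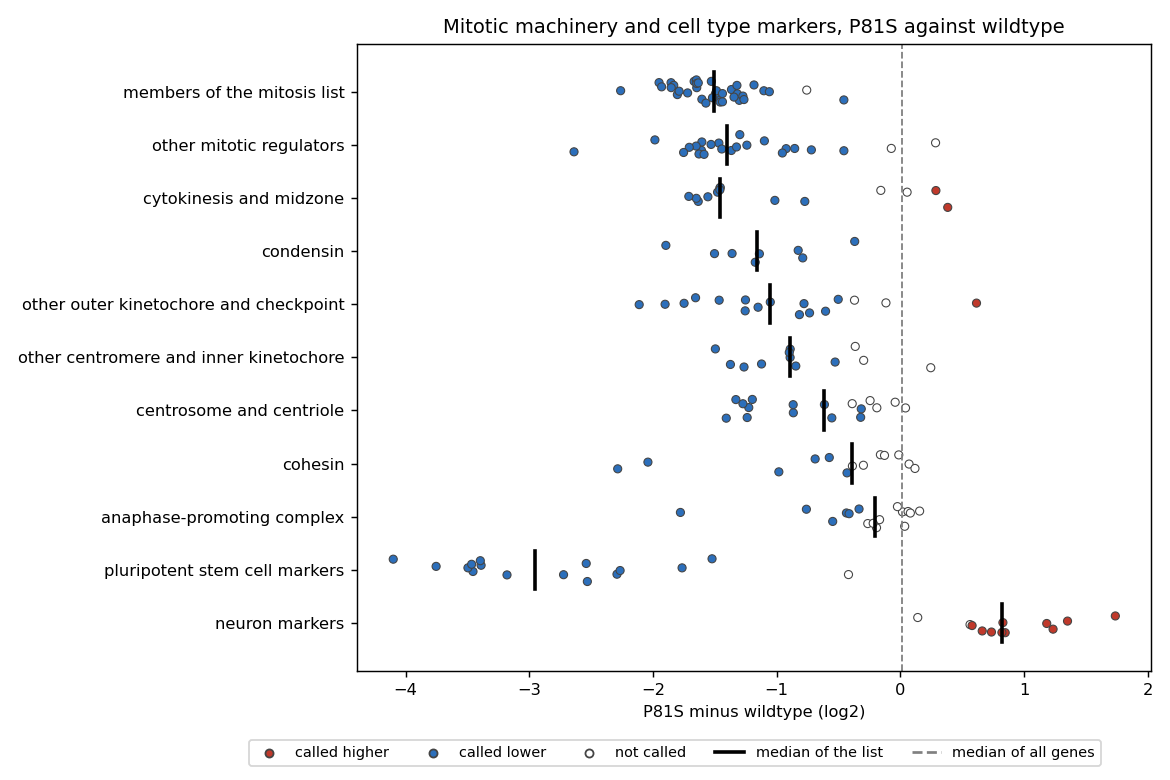
P81S minus wildtype in log2 for each gene (points) of the mitosis list, of 8 other lists of the mitotic machinery and of 2 lists of cell type markers; blue points were called lower, red higher, open not called, black bars are list medians and the dashed line the median of all genes. The mitosis list's bar stands at -1.51, those of cohesin and the anaphase-promoting complex at -0.39 and -0.21, and neuron markers lie above 0.

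The promoter letters did not separate the members by the size of their fall. The 21 measured genes whose window holds CHR letters had a median difference of -1.60 log2 in P81S against wildtype (from -1.93 to -0.46), and the 9 without them -1.52 (from -2.26 to -1.18). Both the smallest fall, in Bub3, and the difference of Mki67 belong to genes with the letters, and the largest, in Cenph, to a gene without. These medians are a description, with no test.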

How the data were processed

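RNA of 10 teratomas was read on 1-colour arrays. Per the labels' protocols, frozen tumour RNA was primed at its poly(A) tail and amplified as biotin-labelled cRNA. The authors deposited 1 log2 value per probe set and array, and per the submitters' processing notes RMA and Partek were used, with no version or setting. Signal over background is unknown. Of 28944 probe sets outside the control block, 21218 were annotated to 1 gene, and Entrez numbers of 21185 matched a RefSeq table (GRCm38.p6); 1881 named several genes and were not used. All 10 value columns were used and 0 left out.

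All arrays entered 1 model of 3 group means (limma 3.58.1, lmFit and eBayes with a trend, two-sided, R 4.3.3; 7 residual degrees of freedom), with Benjamini-Hochberg adjustment over 18820 genes; the code was tested on simulated data. Errors beside differences are standard errors. Per-array values follow a rule: Mki67, Top2a and Cdk1, the largest and smallest difference of each role, and members on chromosome 11; other lists give the 3 smallest p-values and any gene called in the opposite direction. Members and lists were chosen with earlier results of these data known. Alternatives covered scaling, filtering, probe sets, variance models, blocks and omitted arrays.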

Additional observations from a re-analysis of the deposited data

How the results depend on the processing

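No member changed direction in P81S against wildtype or R167Q under the alternatives run. In R167Q against wildtype, where neither passed, Mki67 (-0.03 log2) lay between -0.166 and 0.0654 log2 without single arrays, above 0 without R167Q replicate 2 or 3 or wildtype replicate 3, and Cenpf (-0.27) between -0.509 and 0.0458, above 0 without wildtype replicate 3. In P81S against wildtype 34 to 36 members were lower when single arrays were left out, and 34 to 36 under all other settings, with 0 higher; 5073 to 6953 genes were called without single arrays. In P81S against R167Q the lower members numbered 13 to 35 without single arrays and 23 with only those groups in the model; 2328 to 4916 genes were called without single arrays, and 2419 without P81S replicates 3 and 4, against 4234. In R167Q against wildtype 17 genes were called, 5 to 21 without single arrays, 11 without dim genes, 28 with all probe sets tested, 26 with only the compared groups and 42 with array weights; with only the compared groups 1 member, Cenph, was lower, and array weights left 0. The replicate numbers did not pair the arrays: same-numbered arrays of different groups had correlations of their deviations from -0.28 to 0.21 across genes. With the replicate number as a block, which takes up P81S replicate 4 entirely, 35 and 26 members were lower in P81S than in wildtype and R167Q. With each possible pair of P81S arrays sharing a clone, 35 or 36 and 33 or 34 were lower. The correlations within pairs, estimated over all genes, were 0.047, -0.23 and -0.029. With values near or below 0, these fits made little or no allowance for a shared clone. The fit at -0.23, with P81S replicates 1 and 3 paired, was less strict than the main one. It called 7081 genes in P81S against wildtype, against 6530. The small number of arrays limits the precision, and signal over background could not be set.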

Other observations

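For the 3 members with several probe sets, the probe sets not used also averaged lower in P81S than in wildtype, by smaller amounts than the ones used. The second probe set of Mad2l1 averaged 8.12 log2 in P81S, against 9.47 in wildtype (-1.35), beside -1.49 for the one used. The second of Kif11 averaged 6.15 log2 in P81S, against 6.85 in wildtype (-0.69), beside -1.34. In R167Q this probe set averaged 6.90 log2, above wildtype, unlike the one used, while the other unused probe sets averaged below wildtype in R167Q. For Top2a the 2 further probe sets averaged 3.79 and 4.11 log2 in P81S, against 4.31 and 4.71 in wildtype, all under the control block's median of 5.91 log2. These values were not tested gene by gene.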
